A study of Homo sapiens with 6 samples.

Results

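To describe the Notch pathway in cells labelled MHCC97H, the name of a long-established line of human liver cancer (hepatocellular carcinoma, HCC), the mRNA levels of 10 genes chosen by name were taken from RNA sequencing. These were the receptors NOTCH1, NOTCH2 and NOTCH3, the ligands JAG1, JAG2 and DLL1, the DNA-binding effector RBPJ and the target genes HES1, HES4 and HEY1. All 10 were found, each under 1 Ensembl identifier, among the 58825 genes of the deposited table. The series holds 6 libraries, 3 labelled shPTBP1 (PTBP1 knockdown by a short hairpin RNA) and 3 labelled shControl (a control hairpin, genotype WT), all of this 1 line and with no drug treatment in their labels. The labels do not say which hairpin was used, nor whether libraries of a group came from separate cultures, so p-values measure the spread between these libraries, which may be technical.

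In Notch signaling a ligand on 1 cell, such as JAG1, binds a receptor on its neighbor, and ADAM proteases and gamma-secretase then release the intracellular part of the receptor. This fragment enters the nucleus, joins RBPJ on DNA and turns on genes of the HES and HEY families, which encode basic helix-loop-helix repressors. In liver development the pathway is known for bile duct formation, and inherited mutations of JAG1 or NOTCH2 cause Alagille syndrome, in which bile ducts are too few. The libraries measure mRNA per gene, so they do not show receptor cleavage or the amount of any protein.

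The promoter windows of HES1, HES4 and JAG1 are printed because HES1 and HES4 are Notch target genes of 1 family and because JAG1 was the member whose groups did not overlap. They come from RefSeq (build GRCh38.p14, the assembly that hg38 of the deposited table names), which held a window for 8 of the 10 members, and run from 250 bases before to 50 bases after the annotated start. Capitals mark TGGGAA, the core of the sequence that RBPJ binds, on either strand. The windows are chr3:194135898-194136197 for HES1 (plus strand), chr1:1000048-1000347 for HES4 (minus strand) and chr20:10673950-10674249 for JAG1 (minus strand).
HES1: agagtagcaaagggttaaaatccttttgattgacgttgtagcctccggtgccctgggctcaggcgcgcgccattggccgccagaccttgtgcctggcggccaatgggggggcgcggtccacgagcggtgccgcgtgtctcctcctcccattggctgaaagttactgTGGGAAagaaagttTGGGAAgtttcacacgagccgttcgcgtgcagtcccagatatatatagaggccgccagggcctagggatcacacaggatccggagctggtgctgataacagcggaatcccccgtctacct
HES4: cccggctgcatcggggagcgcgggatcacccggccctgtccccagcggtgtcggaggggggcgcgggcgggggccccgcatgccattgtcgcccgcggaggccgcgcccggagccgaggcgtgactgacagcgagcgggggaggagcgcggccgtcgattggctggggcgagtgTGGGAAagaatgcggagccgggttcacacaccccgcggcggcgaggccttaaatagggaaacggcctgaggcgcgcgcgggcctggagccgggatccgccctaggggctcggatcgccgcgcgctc
JAG1: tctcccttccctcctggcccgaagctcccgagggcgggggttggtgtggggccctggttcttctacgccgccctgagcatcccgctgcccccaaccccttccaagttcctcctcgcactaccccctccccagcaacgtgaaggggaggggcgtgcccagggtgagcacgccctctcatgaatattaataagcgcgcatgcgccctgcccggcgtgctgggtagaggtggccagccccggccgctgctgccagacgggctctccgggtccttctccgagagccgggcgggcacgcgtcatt
HES1 carried TGGGAA 2 times, from -84 to -79 and from -70 to -65 relative to the start, and HES4 carried it 1 time, from -76 to -71. On either strand, TGGGAA was present at least 1 time in 24.0% and at least 2 times in 3.80% of the 35116 windows of this length, and the longer GTGGGAA, found 1 time in each of HES1 and HES4, in 6.25%. The longest run that both target windows share is tgTGGGAAagaa, 12 bases that begin at -86 in HES1 and at -78 in HES4 and that 8 of the 35116 windows hold on either strand. These 8 include the HES1 and HES4 windows, from which the run was picked. Of the CACNAG sequence, the N box to which HES proteins bind, HES1 held 4 matches on both strands together, a number reached by 0.293% of windows. The E box CACGTG was in 7.26% of windows and in neither target. HES4 held 0 matches to CACNAG, and none of the 4 motifs was found in the window of JAG1. The motif was not confined to the targets, since 1 of the 5 windows of RBPJ held TGGGAA 2 times and GTGGGAA 2 times, the number of GTGGGAA that 0.248% of windows reach. A match describes letters and is not evidence of binding in these cells.

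The deposited counts summed to between 68704509 and 85317970 per library and were treated as estimates, since 32.5% to 34.4% of those from 1 to 40 were multiples of 4, more than evenly spread numbers would give. PTBP1 itself had 142, 138 and 150.3 CPM in the libraries labelled shPTBP1, against 175, 133 and 218 CPM in those labelled shControl, so the targeted gene overlapped between the groups (log2 fold change -0.29, standard error 0.18, adjusted p = 0.953 from edgeR). The paper reports that it checked the knockdown in its lines, MHCC97H among them, by western blot and RT-qPCR. CPM here are counts scaled to a common library total by TMM (trimmed mean of M-values, which evens out library composition), and directions below are between libraries as labelled. Of 8 markers of hepatocytes and liver cancer cells, only the keratins KRT8 (37.7 to 53.2 FPKM) and KRT18 (89.7 to 110.3 FPKM) reached a mean of 1 FPKM (fragments scaled to transcript length and library size). ALB, AFP, APOB and TTR, the defining products of liver cells, were at 0 counts in all 6 libraries, so the labelled cell type is not borne out by these markers and the identity of the line is in doubt. Of 6 biliary and progenitor markers 1, KRT7, reached a mean of 1 FPKM, and of 6 endothelial markers 0 did. Of 6 stellate-cell and fibroblast markers COL1A1, COL3A1 and PDGFRB did, while COL1A2 was at 0 FPKM. Summed levels of the stellate list ran from 356 to 477 CPM in shPTBP1 and from 269 to 327 CPM in shControl, without overlap. Those of the hepatocyte list ran from 739 to 831 CPM in shPTBP1 and from 620 to 727 CPM in shControl, also without overlap. That sum rests on KRT8 and KRT18, since no other marker of the list exceeded 0.22 FPKM. The biliary sums overlapped, at 459 to 563 CPM in shPTBP1 and 372 to 500 CPM in shControl. Of single genes tested, 11.9% did not overlap between the groups. The summed red-cell markers lay between 759 and 1279 CPM in the libraries numbered 1 and 2 and between 1.15 and 1.32 CPM in those numbered 3, while the summed leukocyte markers were at most 27.4 CPM. The blood-cell transcripts split the libraries by number, not by label, and the part of any of these lists in the values below was not tested.

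By level per length, NOTCH2 and RBPJ led the members. The mean over all 6 libraries was 10.3 FPKM for NOTCH2 and 6.38 FPKM for RBPJ, followed by HES4 at 3.68, HES1 at 2.68, JAG2 at 2.63, HEY1 at 1.83, NOTCH1 at 0.953 and JAG1 at 0.902 FPKM. HES1 and JAG2, and likewise NOTCH1 and JAG1, stood next to each other in this order with means closer than the SD of either gene within the shControl group. NOTCH3 and DLL1 were listed at 0 FPKM in every library. DLL1 (ENSG00000198719, chromosome 6, 170282206 to 170306565), the Delta-like ligand, was at 0 counts in every library, and NOTCH3 (ENSG00000074181, chromosome 19, 15159038 to 15200995) had 4 counts in shControl 3 and 0 counts in the other 5 libraries. Because the depth in fragments is unknown, no upper limit is set for these genes. DLL1 is overlapped on the opposite strand by FAM120B, which averaged 24.0 CPM in shPTBP1 and 23.2 CPM in shControl.

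Among the 8 members that passed the filter on low counts (all but NOTCH3 and DLL1), 0 differed between shPTBP1 and shControl at an adjusted p under 0.05 in edgeR, where 6 of 19393 genes, or 0.0309%, did. Of all genes tested 0.0206% were called higher and 0.0103% lower. With DESeq2 there were likewise 0 members, against 0.753% of the 22297 genes to which it gave an adjusted p. With limma on log2(FPKM + 1) there were 0 among the 6 members with a mean of at least 1 FPKM, against 0.0749% of all genes tested. At an unadjusted p under 0.05, limma had 0 of the 6 against 6.91%. At an unadjusted p under 0.05, edgeR had 1 of the 8, JAG1, which was lower. It had 5.69% of all genes tested at that threshold (3.58% higher and 2.11% lower). DESeq2 had 1 member there, against 5.99% of the same 22297 genes. JAG1 was also the 1 member without overlap between the groups, which held for 11.9% of all genes tested (6.49% higher and 5.46% lower in shPTBP1). The log2 fold change was positive for 6 of the 8 members (48.0% of all genes tested) with a median of 0.25, against -0.01 over all genes tested. These shares rest on 8 genes and are given as a description.

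**Figure D1:**
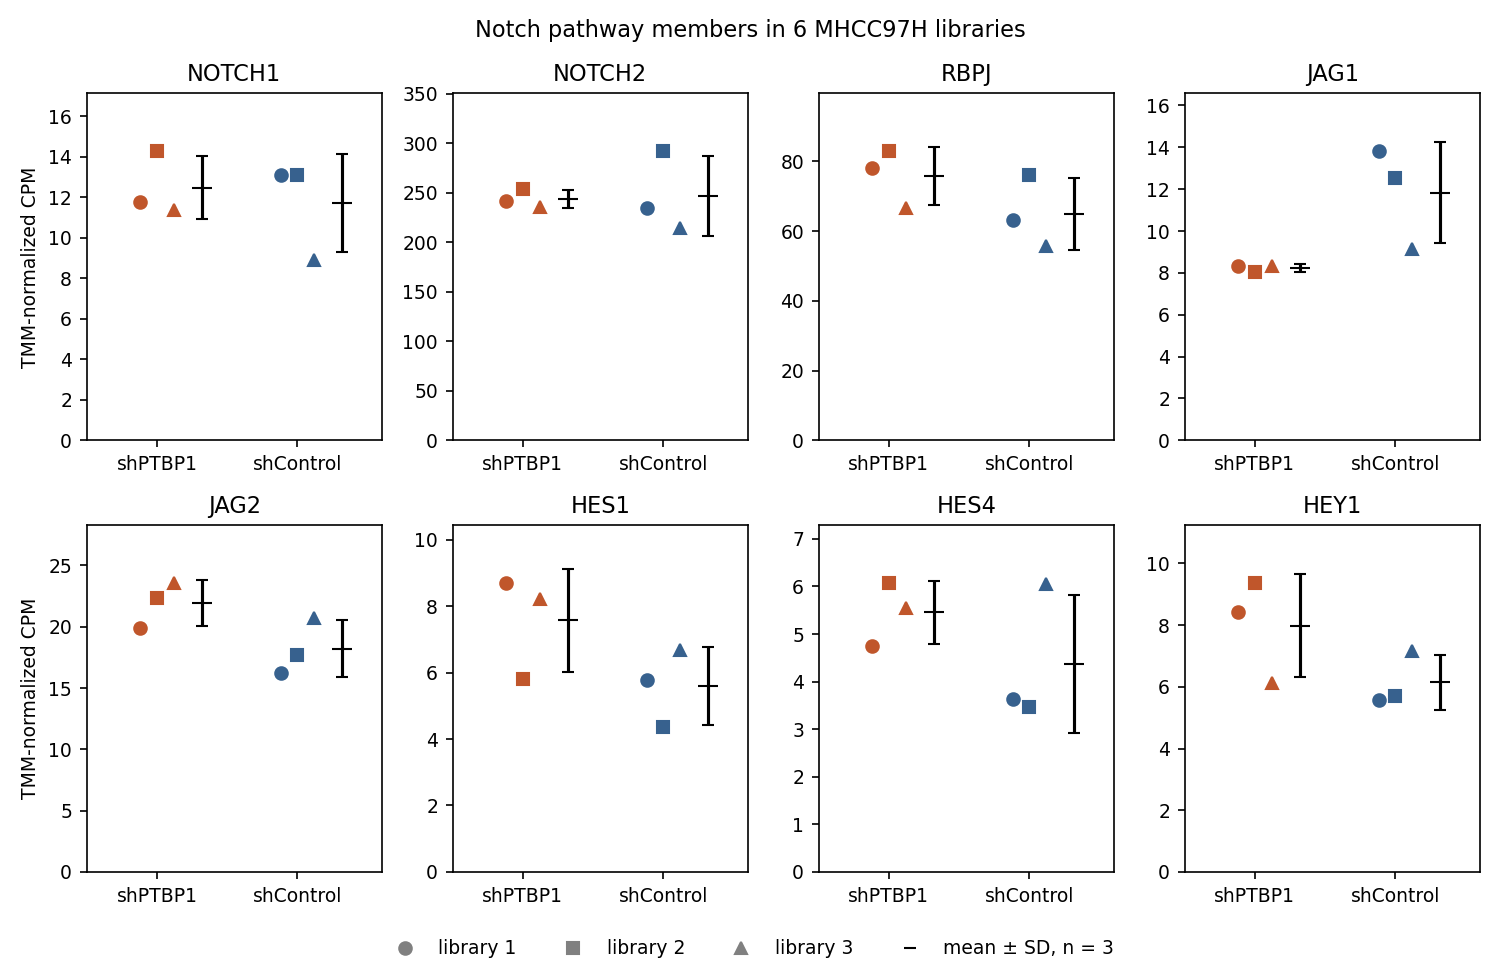
TMM-normalized CPM (vertical axes, from 0) of the 8 members that passed the filter, by group, with points for single libraries (the marker shape gives the library number) and the mean ± SD (n = 3) beside them. JAG1 lies between 8.03 and 8.35 CPM in shPTBP1 and between 9.14 and 13.8 CPM in shControl, and the other 7 members overlap between the groups.

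NOTCH2 accounted for most of the receptor mRNA in both groups. NOTCH2 (ENSG00000134250, chromosome 1 of hg38, 119911553 to 120069662) had 242, 253 and 236 CPM in shPTBP1, against 235, 292 and 214 CPM in shControl. The shPTBP1 libraries all fell inside the range of the shControl libraries, of which shControl 2 was highest. In edgeR the log2 fold change was -0.02 (standard error 0.13, 95% interval -0.33 to 0.29, adjusted p = 0.996). Of the summed FPKM of the 3 receptors, NOTCH2 made up 91.7%, 90.4% and 91.7% in shPTBP1, against 90.5%, 92.3% and 92.8% in shControl. NOTCH2NLA, a partial copy of NOTCH2 with which reads can be shared, had 14.2, 9.69 and 13.8 CPM in shPTBP1, against 9.98, 9.77 and 7.78 CPM in shControl, so how reads were split between the copies is uncertain.
NOTCH1 (ENSG00000148400, chromosome 9, 136494433 to 136546048), a receptor also known as an oncogene of T-cell leukemia, had 11.8, 14.3 and 11.4 CPM in shPTBP1, against 13.1, 13.1 and 8.90 CPM in shControl. Here shControl 3 was the lowest library and the groups overlapped. NOTCH1 gave a log2 fold change of 0.09 (standard error 0.20, 95% interval -0.39 to 0.57, adjusted p = 0.990 from edgeR), and of -0.071 without shControl 3. A change of either receptor by 2-fold in either direction lies outside these intervals.

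Of the ligands, JAG1 had a negative and JAG2 a positive log2 fold change, and neither passed the adjusted threshold. JAG1 (ENSG00000101384, chromosome 20, 10637684 to 10673999), the ligand mutated in most families with Alagille syndrome, had 8.34, 8.03 and 8.35 CPM in shPTBP1, against 13.8, 12.5 and 9.14 CPM in shControl. All 3 shPTBP1 libraries were thus below the lowest shControl library, but shControl 3 was closer to the shPTBP1 libraries than to shControl 1 and 2. In edgeR the log2 fold change of JAG1 was -0.52 (standard error 0.19, 95% interval -0.97 to -0.07, unadjusted p = 0.0296, adjusted p = 0.822), which is 0.697 times the shControl level. The unadjusted p of JAG1 was above 0.05, from 0.0652 to 0.102, when any 1 library other than shControl 3 was left out of the edgeR fit, and it was 0.0556 with library numbers as a replicate block and 0.0866 in limma without a filter. The unadjusted p of JAG1 stayed under 0.05 in DESeq2 (0.0220) and in edgeR without the filter (0.0319) or with library totals (0.0214). It also did so in edgeR with number 3 as a covariate (0.0316), with counts divided by 4 (0.0276) and in libraries numbered 1 and 2 only (0.00650). JAG1 ranked 696 by p-value among the 19393 genes and 18.1% of them had a larger absolute log2 fold change.
JAG2 (ENSG00000184916, chromosome 14, 105140982 to 105168824), a ligand of the same Jagged family, had 19.9, 22.3 and 23.6 CPM in shPTBP1, against 16.2, 17.7 and 20.7 CPM in shControl. Only shControl 3 reached into the shPTBP1 range. Its log2 fold change was 0.27 (standard error 0.15, 95% interval -0.09 to 0.63, adjusted p = 0.953 from edgeR). Antisense or internal genes annotated at JAG1 and JAG2 were at most at 0.0833 CPM in any library.
Within libraries, JAG2 exceeded JAG1 per length in all 6. The ratio of JAG2 to JAG1 FPKM, looked at after the values were seen, was 3.50, 4.07 and 4.15 in shPTBP1, against 1.71, 2.05 and 3.32 in shControl. It averaged 3.91 ± 0.355 in shPTBP1 and 2.36 ± 0.849 in shControl (SD, n = 3 each). The groups of this ratio did not overlap. An exact two-sided permutation over libraries gave p = 0.1, the smallest value that 3 against 3 libraries can give, so it cannot decide. The separation is a description only, since the ratio was formed from genes whose values were known. The share of other gene pairs that separate in this way was not counted.

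**Figure D2:**
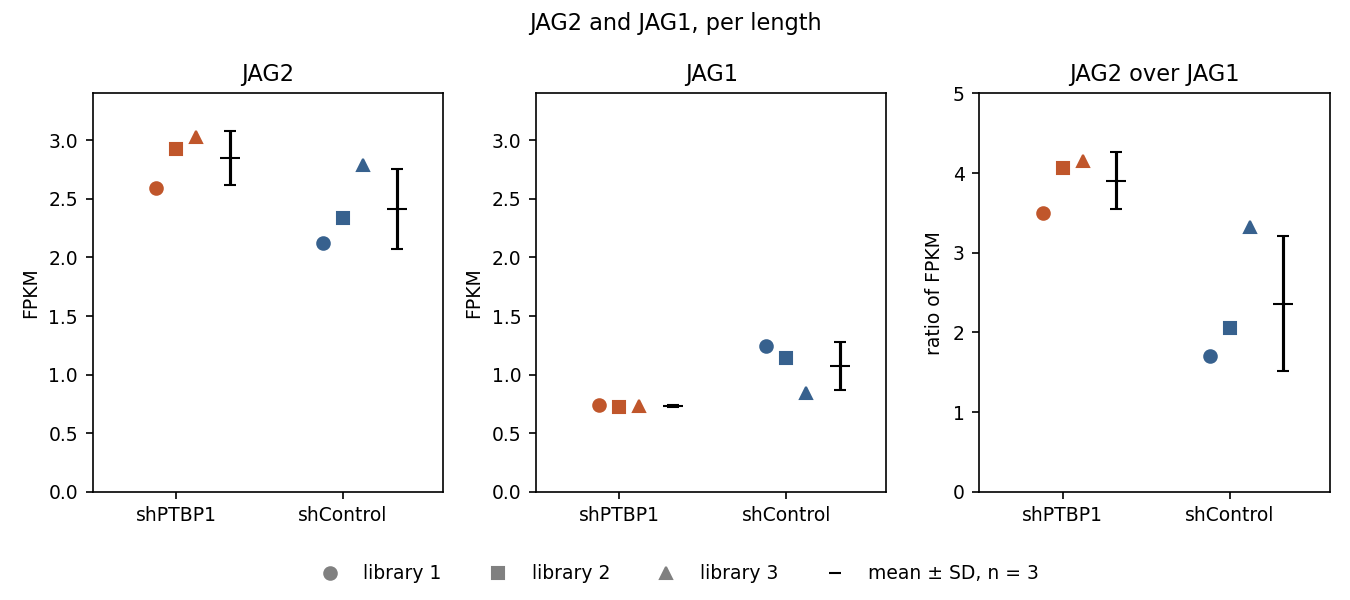
FPKM of JAG2 and JAG1 (left and middle, same axis) and the ratio of JAG2 to JAG1 FPKM (right) in each library, by group, with the mean ± SD (n = 3). The ratio lies between 3.50 and 4.15 in shPTBP1 and between 1.71 and 3.32 in shControl, with shControl 3 highest among the shControl libraries.

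RBPJ (ENSG00000168214, chromosome 4, 26163455 to 26435131), which represses target genes with corepressors until the receptor fragment arrives, had 78.0, 82.9 and 66.5 CPM in shPTBP1, against 63.1, 76.0 and 55.6 CPM in shControl. The groups overlapped, and in both of them library 2 was highest and library 3 lowest. For RBPJ the log2 fold change was 0.22 (standard error 0.15, 95% interval -0.13 to 0.58, adjusted p = 0.953 from edgeR).

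The 3 targets had positive log2 fold changes, and none passed the adjusted threshold. HES1 (ENSG00000114315, chromosome 3, 194136148 to 194138732), the repressor through which Notch delays differentiation in many tissues, had 8.70, 5.80 and 8.22 CPM in shPTBP1, against 5.76, 4.36 and 6.69 CPM in shControl. Library 2 was lowest in both groups, and shPTBP1 2 lay within the shControl range. The summed endothelial markers, none of which reached a mean of 1 FPKM, had the same lowest libraries. They were at 13.1, 6.02 and 14.3 CPM in shPTBP1, against 8.41, 2.42 and 17.7 CPM in shControl. The match was partial, since the highest endothelial library was shControl 3 and the highest of HES1 was shPTBP1 1. The part of these markers in the HES1 values was not tested. For HES1 the log2 fold change was 0.43 (standard error 0.25, 95% interval -0.15 to 1.01, adjusted p = 0.953 from edgeR).
HEY1 (ENSG00000164683, chromosome 8, 79764010 to 79767857), a repressor of the related HEY family, had 8.44, 9.37 and 6.14 CPM in shPTBP1, against 5.57, 5.70 and 7.16 CPM in shControl. Here library 3 ran against the others, being the lowest of shPTBP1 and the highest of shControl. Its log2 fold change came to 0.38 (standard error 0.22, 95% interval -0.15 to 0.90, adjusted p = 0.953 from edgeR).
HES4 (ENSG00000188290, chromosome 1, 998962 to 1000172), a HES family repressor, had 4.75, 6.07 and 5.54 CPM in shPTBP1, against 3.63, 3.46 and 6.04 CPM in shControl. With shControl 3 inside the shPTBP1 range and shControl 1 and 2 below it, the shControl group spread more widely, at 4.38 ± 1.45 CPM, than shPTBP1 at 5.46 ± 0.664 CPM (SD, n = 3 each). HES4 gave a log2 fold change of 0.32 (standard error 0.27, 95% interval -0.32 to 0.96, adjusted p = 0.966 from edgeR). Thus for HES1 a rise of 2-fold lies inside the interval, while for HES4 and HEY1 it lies just outside, and a fall of 2-fold lies outside all 3.

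The values of several members depended on single libraries. Without shControl 3 the edgeR log2 fold change was -0.68 for JAG1 (unadjusted p = 0.00254, adjusted p = 0.104), 0.37 for JAG2 (adjusted p = 0.259), 0.62 for HES4 (adjusted p = 0.194), 0.58 for HES1 (adjusted p = 0.316), 0.50 for HEY1 (adjusted p = 0.333) and 0.12 for RBPJ (adjusted p = 0.725). At an unadjusted p under 0.05, 3 of the 8 members (JAG1, JAG2 and HES4) were counted in that fit, against 16.6% of 20167 genes, and at an adjusted p under 0.05 there were 0 members, against 0.674%. In the libraries numbered 1 and 2 alone, JAG1 was at -0.69 (adjusted p = 0.145), HEY1 at 0.66 (adjusted p = 0.169) and HES4 at 0.61 (adjusted p = 0.252), again in edgeR, with 3 of 8 members at an unadjusted p under 0.05 against 17.7% of all genes and 0 past the adjusted threshold against 0.319%. Leaving out other libraries lowered some of the values. HES4 was at 0.17 without shControl 2 and at 0.20 without shControl 1, HES1 at 0.28 without shControl 2, and HEY1 at 0.25 without shPTBP1 2. RBPJ was at 0.35 without shControl 2. No member was called in any of the 16 alternative fits.

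**Figure D3:**
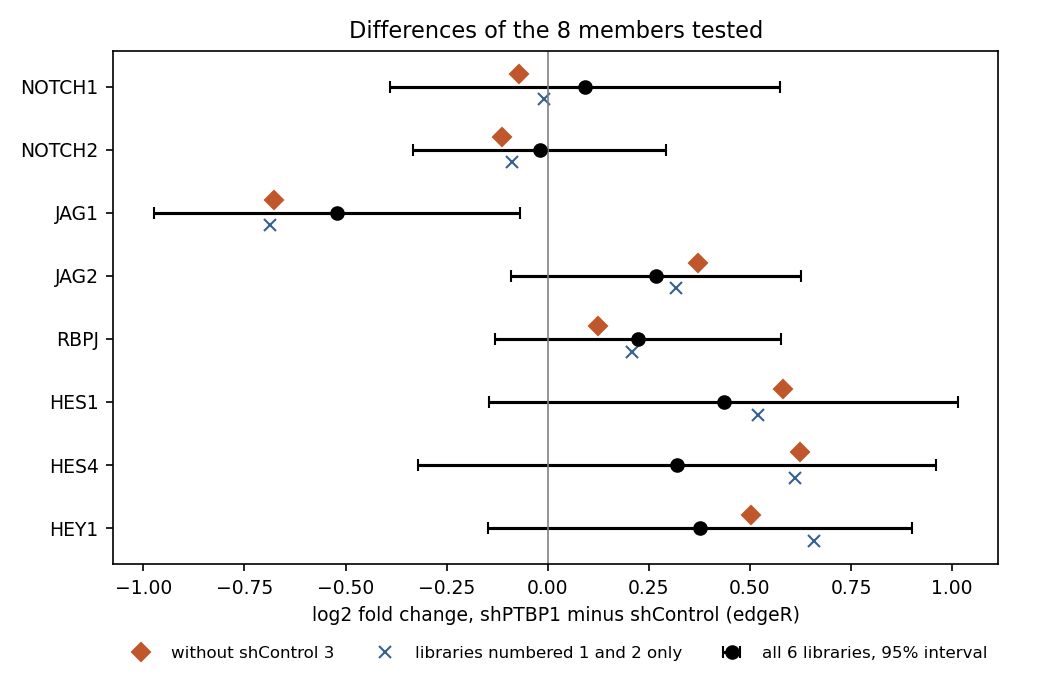
Log2 fold change (shPTBP1 minus shControl, horizontal axis) of the 8 members from edgeR with its 95% interval over all 6 libraries (black), without shControl 3 (diamonds) and in the libraries numbered 1 and 2 only (crosses). The interval of JAG1, from -0.97 to -0.07, is the one that leaves out 0, and the points of HES4 move from 0.32 to 0.62 without shControl 3.

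HES4 lies beside the interferon-stimulated gene ISG15, which is transcribed in the opposite direction from 965 bases away, and AGRN, which encodes the matrix protein agrin, is the next coding gene. These neighbors were looked at after the values of HES4 were seen. ISG15 had 38.7, 42.0 and 48.1 CPM in shPTBP1, against 8.25, 9.77 and 48.5 CPM in shControl. AGRN had 122, 133 and 149.6 CPM in shPTBP1, against 74.2, 84.1 and 129 CPM in shControl. In all 3 neighboring genes shControl 1 and 2 were the lowest libraries and shControl 3 fell inside or above the shPTBP1 range. The pattern was not confined to this locus, since JAG2 on chromosome 14 and NEURL1B on chromosome 5 had it too. The share of all genes with this pattern was not counted. Neither neighbor passed the adjusted threshold over 6 libraries (log2 fold change 0.95 and adjusted p = 0.953 for ISG15, 0.49 and adjusted p = 0.891 for AGRN, edgeR), and whether the genes share a cause was not tested.

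**Figure D4:**
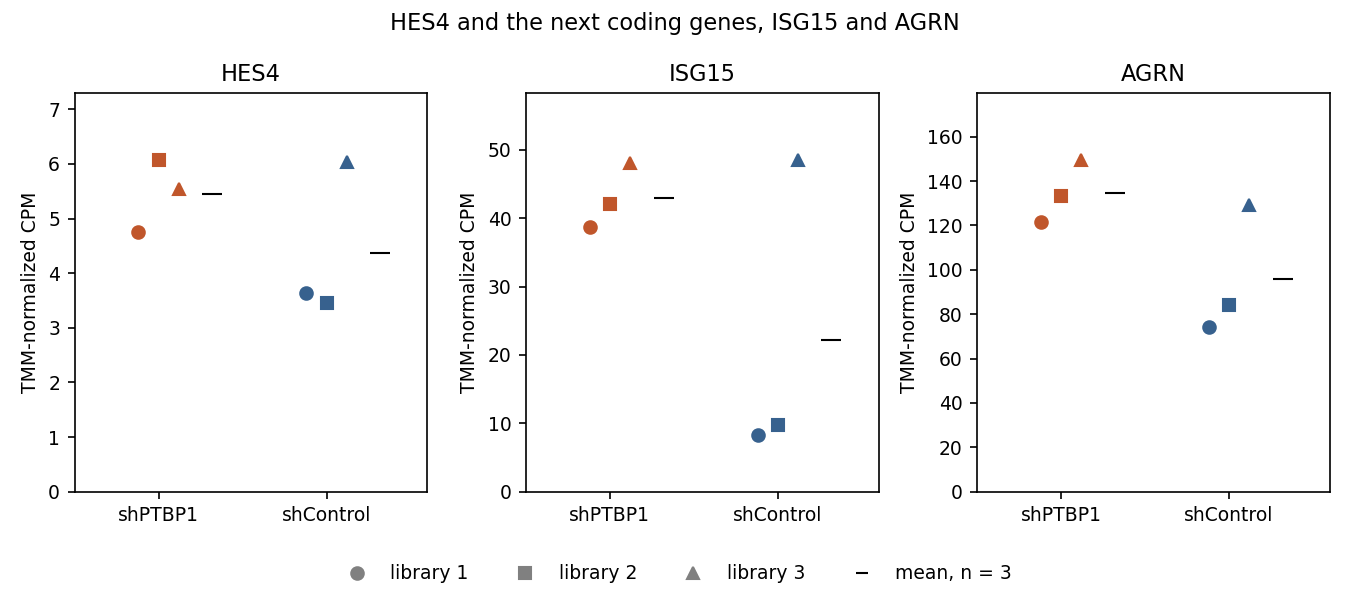
TMM-normalized CPM of HES4, ISG15 and AGRN, adjacent coding genes on chromosome 1, in each library by group, with points for single libraries and a dash for the mean (n = 3). In HES4, shControl 1 and 2 lie at 3.63 and 3.46 CPM and the other 4 libraries at 4.75 to 6.07 CPM.

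The profile of HES1 over the 6 libraries was most like those of PPP1R21, DCTN2 (a dynactin subunit) and SDF2L1 (a chaperone partner of the endoplasmic reticulum), with Pearson correlations of 0.98, 0.98 and 0.97 among 12017 genes with a mean of at least 1 FPKM. With 6 points that share their normalization, the correlations are a description only. DCTN2 had 91.5, 68.8 and 89.9 CPM in shPTBP1, against 71.6, 55.2 and 83.1 CPM in shControl, with library 2 lowest in both groups as in HES1.

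Beyond the members, 61 further genes of the pathway were listed, of which 56 passed the filter. Of these 0 passed the adjusted threshold in edgeR in either direction, and 4 had an unadjusted p under 0.05, 3 of them higher and 1 lower, where 5.69% of all genes did. The groups did not overlap in 7 genes that were higher and 2 that were lower in shPTBP1, against 11.9% of all genes tested. Their median log2 fold change was 0.00, against -0.01 over all genes tested, and 28 were positive and 28 negative.
Of the genes that cut the receptor all 9 listed were tested, and 7 had positive log2 fold changes, with a median of 0.11. NCSTN, which encodes nicastrin of the gamma-secretase complex, had 189, 191 and 178 CPM in shPTBP1, against 138, 140.0 and 161 CPM in shControl. In edgeR it was at 0.35 on the log2 scale (standard error 0.10, unadjusted p = 0.0124, adjusted p = 0.675). Its lowest shPTBP1 library exceeded its highest shControl library. PSENEN, a small subunit of that complex, was at 0.13 and its groups overlapped.
Of 17 coactivators and corepressors of RBPJ, all tested, 6 had positive and 11 negative log2 fold changes, with a median of -0.05. SNW1 (SKIP), which is both a partner of the RBPJ complex and a splicing factor, had 96.2, 92.3 and 98.5 CPM in shPTBP1, against 84.8, 81.0 and 81.1 CPM in shControl (log2 fold change 0.22, unadjusted p = 0.0486, adjusted p = 0.876 from edgeR). The coactivator MAML3 was at 0.38 and the demethylase KDM5A at 0.16, both with an adjusted p = 0.953 in edgeR.
Of 11 genes of receptor turnover 10 were tested, 4 positive and 6 negative, with a median of -0.14. NEDD4, a ubiquitin ligase, had 44.5, 48.5 and 28.2 CPM in shPTBP1, against 54.8, 60.0 and 54.9 CPM in shControl (log2 fold change -0.49, unadjusted p = 0.0476, adjusted p = 0.876 from edgeR), with shPTBP1 3 far below the other libraries. FBXW7, the ligase component that marks the nuclear receptor fragment for degradation, was at -0.26 (adjusted p = 0.933 from edgeR) and DTX3, a Deltex ligase, at 0.66 (adjusted p = 0.895 from edgeR) from levels of at most 2.44 CPM.
Of 10 genes that modify ligands and receptors or drive ligand endocytosis, all tested, 5 were positive and 5 negative. The fucosyltransferase POFUT1 was at 0.17, the ligase NEURL1B at 0.50 and the glucosyltransferase POGLUT1 at -0.15, with adjusted p of 0.953 to 0.967 in edgeR. Of 4 other receptors and ligands, NOTCH4 (0.33) and DLL3 (-0.64) were tested at means of at most 0.143 FPKM in either group, and DLL4 and DLK1 were below the filter.
Of 10 other HES, HEY and target genes 8 were tested, 5 positive and 3 negative, with a median of 0.19. HES6, a family member known to counteract HES1, had 1.94, 1.69 and 1.40 CPM in shPTBP1, against 0.863, 1.09 and 1.33 CPM in shControl (log2 fold change 0.62, adjusted p = 0.907 from edgeR), without overlap. SOX9, a biliary fate gene, was at 1.10 from levels of at most 1.08 CPM, and cyclin D1 (CCND1) at -0.29, with adjusted p of 0.953 and 0.954 in edgeR.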

How the data were processed

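RNA of 6 MHCC97H libraries was poly(A)-selected and sequenced after a dUTP strand-marking protocol. The authors deposited 1 table with FPKM and whole-number estimated counts per gene. Per the labels they used cutadapt 1.9, FastQC, HISAT2 2.2.1 and StringTie on hg38, and settings, the counting step and its use of strand are not given in the sources used here, so antisense overlap cannot be resolved. The excess of multiples of 4 among them leaves the depth in fragments unknown, so no limit was set for a count of 0. The deposited counts were fitted over all genes in R 4.3.3 with the quasi-likelihood test of edgeR 4.0.16 (its default low-count filter, TMM scaling, no covariates), with Benjamini-Hochberg adjustment and a threshold of 0.05. The paper names no test for its changed genes. The standard error is the absolute log2 fold change divided by the square root of F, and the 95% interval uses the fit's t quantile. The edgeR step was tested on simulated data. Alternatives were DESeq2 1.42.0 and edgeR without filter, with library totals, with a replicate block or with number 3 as a covariate. Others were limma 3.58.1 on log2(FPKM + 1) with and without a minimum mean of 1 FPKM, and on log2(FPKM + 0.1) with that minimum. Further edgeR fits used libraries 1 and 2 only, left out each library or, added after seeing the data, took counts divided by 4. The members, pathway lists and tests were chosen with earlier results of these data known. Named were all 10 members, PTBP1, up to 3 genes per pathway list with the smallest unadjusted p, and the 3 genes most like HES1, except 1 listed gene that is not reported here. Overlapping genes came from GENCODE 29, which holds 58552 of the 58825 identifiers. Tables and figures were made with Python 3.11.15, pandas 2.3.3, numpy 2.4.6 and matplotlib 3.10.9.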

Additional observations from a re-analysis of the deposited data

How the results depend on the processing

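The count of 0 members and of 0 other pathway genes past the adjusted threshold held under all 16 alternatives. JAG1 was negative, and JAG2, RBPJ, HES1, HES4 and HEY1 were positive, in every alternative that gave them a value. NOTCH1 lay between -0.071 and 0.18 and NOTCH2 between -0.11 and 0.12 when each library was left out in turn, and NOTCH1 was at -0.0085 in the libraries numbered 1 and 2 only, so the sign of neither held. JAG1 and NOTCH1, at a mean under 1 FPKM, were not tested in the filtered limma fits. Over all genes the count past the adjusted threshold moved from 6 in edgeR to 168 in DESeq2, 63 in the libraries numbered 1 and 2 only, 3 with number 3 as a covariate, 1 in limma on log2(FPKM + 1) without a filter, and 2 to 136 with each library left out, the 136 without shControl 3. What depth limits cannot be said, since the depth in fragments is unknown.
A fit that took library numbers as a replicate block left 0 genes that passed in edgeR (987 at an unadjusted p under 0.05). In that fit the unadjusted p fell for HES1 (to 0.0721), RBPJ (0.0904), JAG2 (0.116), HES4 (0.233) and NOTCH1 (0.576). It rose for JAG1 (to 0.0556), HEY1 (0.220) and NOTCH2 (0.946). The deviations of same-numbered libraries from their group means correlated at -0.01, 0.16 and 0.08 over 19393 genes. Libraries numbered 2 and 3 each correlated best with the library of their own number in the other group. Since shPTBP1 1 correlated best with shControl 3 (0.05), the numbers were not taken as pairs, though some deviation is shared by number.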

Other observations

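Some pathway genes differed between libraries in ways that cross the labels. MYC, a growth regulator and a Notch target in T cells, had 9.47, 9.51 and 255 CPM in shPTBP1, against 7.78, 190.1 and 234 CPM in shControl, so that 3 libraries of both labels lay more than an order of magnitude below the other 3 (log2 fold change -0.66, standard error 1.49, adjusted p = 0.991 from edgeR). APH1B, a gamma-secretase subunit, had 11.1, 2.42 and 11.1 CPM in shPTBP1, against 4.39, 1.57 and 10.01 CPM in shControl, with library 2 lowest in both groups. NEURL1B, a ubiquitin ligase that acts on Notch ligands, had 33.8, 28.8 and 20.1 CPM in shPTBP1, against 11.8, 14.9 and 31.6 CPM in shControl, with shControl 3 inside the shPTBP1 range as in HES4. MYC and APH1B were named after their values were seen.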
